A study of Mus musculus with 6 samples.

Results

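Adventitial fibroblasts are described here by 10 genes, Cd34, Pi16, Clec3b, Scara5, Dpt, Ly6a, Ly6c1, Mfap5, Cd248 and Anxa3, out of 22162 genes in the deposited table. The genes were chosen from known markers of adventitial or progenitor-like fibroblasts because Cd34 was lower after tamoxifen (TAM) in these same libraries. Their differences between TAM and ethanol (EtOH) are therefore given as a description, and no test of them is read as a result. All 10 were found in the table by symbol. In skin and around vessels, adventitial fibroblasts are stromal cells of the connective tissue sheath, and the marker genes in common use encode surface proteins and matrix proteins. Cells with these markers have been described as progenitor-like, because they can give rise to other fibroblasts and fat cells. Papillary, reticular and dermal papilla fibroblasts are other populations of the dermis and carry their own markers.

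The cells were MSFs, primary fibroblasts cultured from dorsal skin of a female FASST mouse of the FVB/N strain. FASST cells carry a Cre-ERT2 driven by a regulatory sequence of the pro-alpha 2(I) collagen gene, which is active in mesenchymal cells. They also carry, at the ROSA26 locus, a p27Kip1 allele with GFP that is silent until TAM activates the Cre. The 3 TAM samples, which received 10 µM TAM, are labelled senescent, the 3 EtOH samples, which received the vehicle, are labelled non-senescent, and poly(A) RNA of each was sequenced. Both groups carried the transgenes and were grown at 3% oxygen in medium with serum. No TAM-treated cells without the allele were among these samples, so TAM itself and the activated allele cannot be told apart. The age of the mouse is not given in the sources used here. Nothing states that replicates were separate cultures, so p-values measure only the spread between these libraries.

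Values are normalized counts per gene as the authors deposited them. They summed to between 14952367 and 17314953 per library, and 16.2 normalized counts were taken as 1 c.p.m. (counts scaled to a common library size). A total of 11877 genes had 3 or more libraries at this level and were tested with limma on log2(normalized counts + 1). The log2 fold change is TAM minus EtOH on that scale, and it understates differences between low values. Cdkn1b, the endogenous gene for p27Kip1, had 1427, 3074 and 1853 normalized counts in EtOH replicates 1, 2 and 3 and 1699, 1520 and 1630 in the TAM replicates (log2 fold change −0.32, standard error 0.28, adjusted p = 0.677). It is not given in the sources used here whether transgene reads are part of this row, so it does not check the labels. TAM and EtOH below stand for the libraries so labelled.

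The 250 bases before the annotated start of 5 members are shown, because their promoters can be read beside the levels that follow. Cd34, Clec3b, Pi16 and Scara5 were the 4 members with the lowest log2 fold changes, and Cd248 had nearly the same mean in both groups. The sequences are of the mm9 build, written 5′ to 3′ along the gene, with CpG dinucleotides in capitals. They lie at chr1:196764765-196765014 for Cd34, chr9:123059814-123060063 for Clec3b, chr17:29455572-29455821 for Pi16, chr14:66284990-66285239 for Scara5 and chr19:5067828-5068077 for Cd248, all upstream of the first exon on the plus strand.
Cd34: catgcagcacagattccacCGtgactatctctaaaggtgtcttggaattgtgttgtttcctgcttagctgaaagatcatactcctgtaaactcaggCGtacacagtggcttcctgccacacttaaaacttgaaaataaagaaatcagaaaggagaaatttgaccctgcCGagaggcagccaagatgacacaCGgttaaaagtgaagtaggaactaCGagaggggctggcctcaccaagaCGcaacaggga
Clec3b: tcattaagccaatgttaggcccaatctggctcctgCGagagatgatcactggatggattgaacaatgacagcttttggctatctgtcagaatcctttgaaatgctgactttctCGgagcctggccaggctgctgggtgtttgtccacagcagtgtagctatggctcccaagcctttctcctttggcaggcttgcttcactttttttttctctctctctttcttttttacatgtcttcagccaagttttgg
Pi16: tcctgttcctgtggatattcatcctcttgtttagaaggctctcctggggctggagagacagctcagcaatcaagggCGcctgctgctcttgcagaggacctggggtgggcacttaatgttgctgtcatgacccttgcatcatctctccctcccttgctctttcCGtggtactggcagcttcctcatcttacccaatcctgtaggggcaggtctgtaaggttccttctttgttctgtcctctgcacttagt
Scara5: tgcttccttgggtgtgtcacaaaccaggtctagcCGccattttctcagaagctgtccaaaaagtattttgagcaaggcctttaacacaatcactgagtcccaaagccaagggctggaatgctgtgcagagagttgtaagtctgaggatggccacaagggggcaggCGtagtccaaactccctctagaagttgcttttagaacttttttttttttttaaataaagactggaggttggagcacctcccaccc
Cd248: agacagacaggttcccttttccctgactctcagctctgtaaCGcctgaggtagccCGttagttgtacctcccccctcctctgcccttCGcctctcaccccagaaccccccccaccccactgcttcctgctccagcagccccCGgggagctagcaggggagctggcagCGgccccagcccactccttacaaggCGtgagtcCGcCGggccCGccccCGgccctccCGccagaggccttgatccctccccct

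The promoters of Clec3b, Pi16 and Scara5 held 2 CpGs each and that of Cd34 held 6, below the median of 8 over 22144 promoters of the same length, while that of Cd248 held 11. Members whose promoters are not shown were also below that median, with 0 for Mfap5, 1 each for Ly6a and Ly6c1 and 5 each for Dpt and Anxa3. The ratio of observed to expected CpGs was 0.45 for Cd34, 0.43 for Cd248 and between 0.12 and 0.15 for Clec3b, Pi16 and Scara5. All 10 members had a ratio below 0.5, as did 51.2% of all promoters. A set of 6 short motifs were searched on both strands. The Sp1 GC box GGGCGG lay in the promoters of Cd248 and Anxa3 and in 39.5% of all promoters. The TATA box TATAAA lay in those of Dpt and Ly6c1 (12.5% of all), the STAT site TTCNNNGAA in Dpt and Scara5 (6.7%), and the TEAD site GGAATG in Scara5 (11.3%). The AP-1 site TGANTCA (6.1%) and the GATA site AGATAA (9.2%) were in none of the 10 windows. A match describes the letters of a window and does not show that a factor binds there.

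Cd34 encodes a heavily glycosylated surface protein of blood progenitors, vessel lining and adventitial fibroblasts. The gene (ENSMUSG00000016494) lies on chromosome 1 from 196765015 to 196787486, with its exons in 8 blocks. It had 3604, 3129 and 6633 normalized counts in EtOH replicates 1, 2 and 3 and 65.2, 54.5 and 416 in TAM replicates 1, 2 and 3. The highest TAM library lay far below the lowest EtOH library, and replicate 3 was highest in both groups. The means were 4455 ± 1901 and 178 ± 206 (SD, n = 3 each), a 25.0-fold difference. The log2 fold change was −5.19 (standard error 0.75). By same-numbered pair, Cd34 was 55.3, 57.5 and 15.9-fold lower in TAM, and the pair differences on the log2 scale were −5.77, −5.82 and −3.99. In bulk RNA, fewer cells with a transcript and less of it per cell cannot be told apart. A noncoding gene on the opposite strand, Gm16897, overlaps 5.65% of the exon bases of Cd34.

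Clec3b and Pi16 were the other members whose groups did not overlap. Clec3b encodes tetranectin, a secreted C-type lectin that binds plasminogen. The gene (ENSMUSG00000025784) lies on chromosome 9 from 123060064 to 123066548, with 3 exon blocks. Its normalized counts were 1592, 1115 and 2944 in the EtOH libraries and 154, 9.20 and 435 in the TAM libraries. TAM replicate 2 stood far below the other TAM libraries, and at that level 9.20 normalized counts were 11 of the smallest steps between values in this library. The means were 1884 ± 949 and 199 ± 217 (SD, n = 3 each), 9.45-fold lower in TAM. The log2 fold change was −4.30 (standard error 1.26). The pairs were 10.4, 121 and 6.76-fold lower.

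Pi16 encodes a secreted or membrane-anchored peptidase inhibitor and is a widely used marker of these fibroblasts. The gene (ENSMUSG00000024011) lies on chromosome 17 from 29455822 to 29465840, with 4 exon blocks. It had 88.4, 74.4 and 296 normalized counts in the EtOH libraries and 12.3, 6.69 and 49.5 in the TAM libraries. Replicate 3 was again highest and replicate 2 lowest in both groups. The means were 153 ± 124 and 22.8 ± 23.2 (SD, n = 3 each), with a log2 fold change of −2.87 (standard error 0.81). The 3 pairs were close to each other, at 7.21, 11.1 and 5.98-fold lower in TAM. Pi16 was the weakest member in every EtOH library, and the value of TAM replicate 2 was 8 of its smallest steps. Of its exon bases, 3.4% matched other places in the genome at 95% identity or more.

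Scara5 encodes a scavenger receptor of class A that binds ferritin. The gene (ENSMUSG00000022032) lies on chromosome 14 from 66285240 to 66383663, with 12 exon blocks. Its normalized counts were 603, 222 and 1108 in the EtOH libraries and 430, 11.7 and 81.7 in the TAM libraries. TAM replicate 1 lay above EtOH replicate 2, so the groups overlapped. The means were 644.5 ± 444 and 174 ± 224 (SD, n = 3 each), 3.70-fold lower in TAM, with a log2 fold change of −2.79 (standard error 1.22). The pair with number 1 differed by only 1.40-fold, while the others differed by 19.0 and 13.6-fold. Without TAM replicate 2 the log2 fold change of Scara5 was −1.49 and that of Clec3b −2.74.

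**Figure D1:**
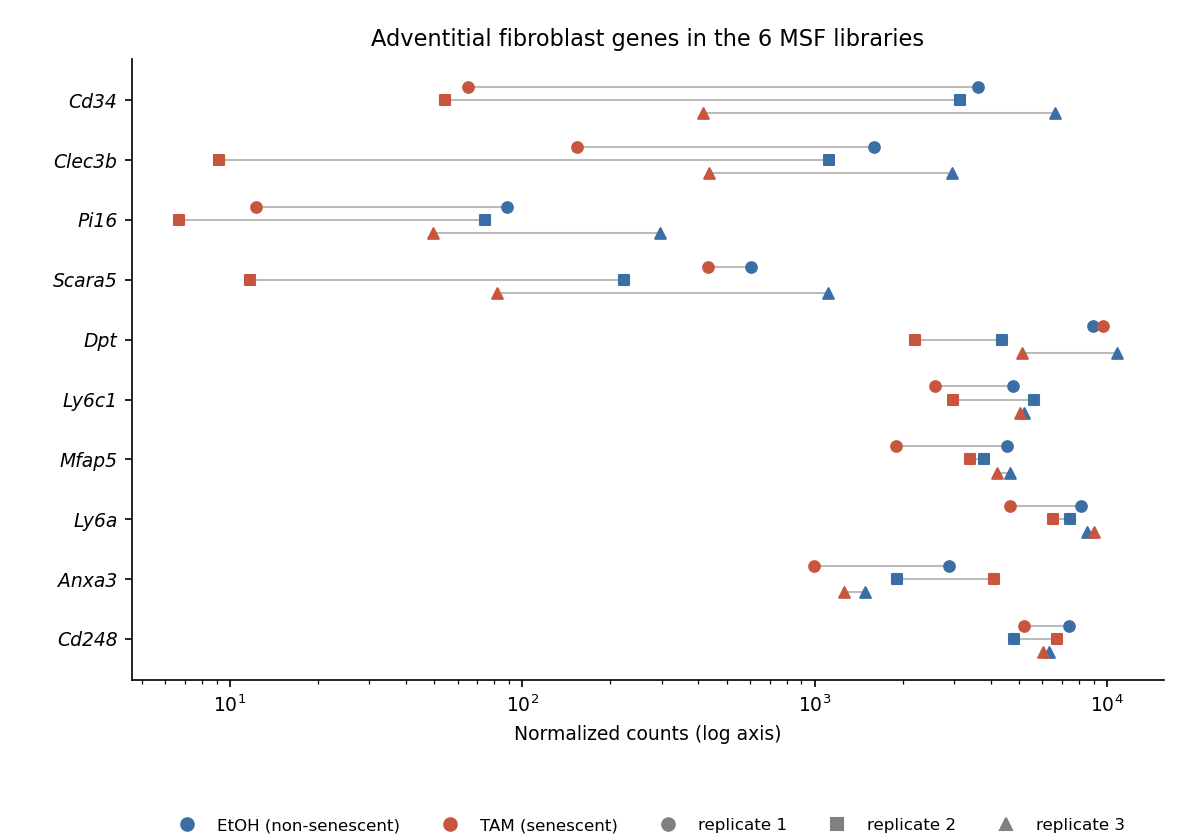
Normalized counts (log axis) of the 10 genes in each library, with EtOH in blue and TAM in red, a marker shape for each replicate number and a line joining each same-numbered pair. The TAM points lie wholly below the EtOH points for Cd34, Clec3b and Pi16, with 416, 435 and 49.5 normalized counts in the highest TAM library.

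The 2 matrix genes had smaller differences. Dpt encodes dermatopontin, a small matrix protein that binds decorin and takes part in collagen fibril assembly. Dpt (ENSMUSG00000026574, chromosome 1 from 166726863 to 166754397) had 8932, 4360 and 10801 normalized counts in the EtOH libraries and 9668, 2204 and 5117 in the TAM libraries. The groups overlapped, and replicate 2 was lowest in both. The log2 fold change was −0.65 (standard error 0.57), and it was −0.09 without TAM replicate 2. Mfap5 encodes a glycoprotein of elastic microfibrils. Mfap5 (ENSMUSG00000030116, chromosome 6 from 122455863 to 122465393) had 4523, 3802 and 4658 normalized counts in the EtOH libraries and 1893, 3396 and 4190.0 in the TAM libraries. The means were 4328 ± 460 and 3160 ± 1167 (SD, n = 3 each), and the log2 fold change was −0.52 (standard error 0.30). Most of the difference came from the first pair, at −1.26 on the log2 scale, against −0.16 and −0.15 in the others.

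Ly6a, which encodes Sca-1, and Ly6c1 encode small surface proteins held by a lipid anchor and are neighbours on the minus strand of chromosome 15. Ly6a (ENSMUSG00000075602) lies from 74825308 to 74828064 and Ly6c1 (ENSMUSG00000079018) from 74875447 to 74879260, with 47382 bases between them. Ly6a had 8101, 7442 and 8495 normalized counts in the EtOH libraries and 4650, 6509 and 8981 in the TAM libraries. TAM replicate 3 was the highest of all 6, and the log2 fold change was −0.30 (standard error 0.26). Ly6c1 had 4771, 5602 and 5174 in the EtOH libraries and 2576, 2956 and 5044 in the TAM libraries. TAM replicates 1 and 2 lay below all EtOH libraries and TAM replicate 3 lay among them. The log2 fold change of Ly6c1 was −0.62 (standard error 0.27). The level of Ly6c1 is uncertain, because 84.9% of its exon bases matched Ly6c2 at 95% identity or more, and 12.9% of those of Ly6a matched Ly6c1. Ly6c2 itself was listed at no more than 6.12 normalized counts in any library. Per kilobase of exon, Ly6c1 stood at 0.57, 0.73 and 0.59 of the level of Ly6a in the EtOH libraries and at 0.54, 0.44 and 0.55 in the TAM libraries.

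Cd248 encodes endosialin, a surface protein of fibroblasts and pericytes. Cd248 (ENSMUSG00000056481) is a gene of 1 exon on chromosome 19 from 5068078 to 5070637. It had 7424, 4788 and 6316 normalized counts in the EtOH libraries and 5183, 6736 and 6023 in the TAM libraries. All TAM values lay within the range of the EtOH values, the means were 6176 ± 1324 and 5981 ± 778 (SD, n = 3 each), and the log2 fold change was −0.03 (standard error 0.22). Anxa3, for an annexin that binds phospholipid in the presence of calcium, had 2872, 1902 and 1488 normalized counts in the EtOH libraries and 997, 4092 and 1253 in the TAM libraries. Anxa3 (ENSMUSG00000029484) lies on chromosome 5 from 97222404 to 97274987. TAM replicate 2 held its highest value and TAM replicate 1 its lowest. The means were 2088 ± 711 and 2114 ± 1718 (SD, n = 3 each), while the log2 fold change was −0.22 (standard error 0.53), so mean and mean log differed in sign. The pair differences of Anxa3 were −1.53, 1.10 and −0.25.

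The sizes of the differences varied widely among the 10 genes. Cd34, Clec3b, Pi16 and Scara5 had log2 fold changes below −2, as did 96 of the genes tested (0.81%). The other 6 lay above −0.7. All 10 values were below 0, where 53.8% of the genes tested had a negative value, and the median was −0.63 against −0.03 over all genes tested. Scaling all libraries to the same sum moved that median of all genes to 0.08, and Cd248 then had a value above 0. The TAM libraries lay all below the EtOH libraries in 3 of 10 members and in 11.4% of the genes tested, and all above in 0 of 10 and in 9.19%. An adjusted p under 0.05 with limma was reached by 0 of 10 members, where 0.0758% of genes tested passed lower and 0.168% higher. Unadjusted, p was under 0.05 and the value lower in TAM for 3 of 10 members and 6.70% of genes tested, and higher for 0 of 10 and 6.67%. In the fit with a replicate block, 2 of 10 members passed lower and 0 higher, where 0.615% of genes tested passed lower and 1.00% higher. Because the genes were chosen on this contrast, nothing is read from these counts.

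By pair, 26 of the 30 values of the 10 genes were below 0. The median over the members was −1.07, −0.95 and −0.66 in pairs 1, 2 and 3, and over all genes tested it was −0.05, 0.00 and −0.05. Cd34, Pi16, Clec3b, Scara5, Ly6c1 and Mfap5 were lower in TAM in every pair, as were 23.6% of the genes tested. The 4 values above 0 belonged to Dpt in pair 1, Cd248 and Anxa3 in pair 2 and Ly6a in pair 3. Same-numbered libraries deviated together, which is described with the processing, so pairs are shown beside the group means.

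**Figure D2:**
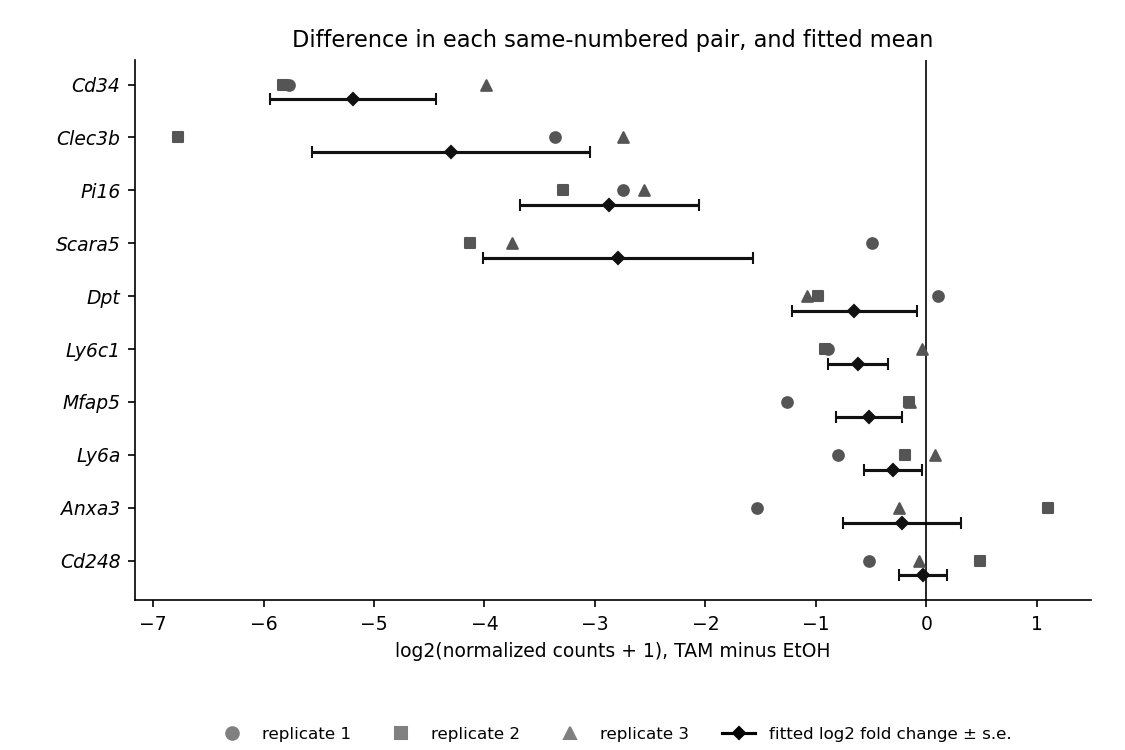
Difference TAM minus EtOH in log2(normalized counts + 1) for each gene, with 1 grey marker per same-numbered pair and a black diamond for the fitted log2 fold change ± 1 standard error. Cd34 lies between −5.82 and −3.99, Clec3b between −6.77 and −2.75, and Cd248 on both sides of 0.

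Among EtOH libraries the members also differed from each other in spread. The SD of log2 values was above that of 95.5% of the genes tested for Scara5 and 94.5% for Pi16, but of only 11.2% for Ly6a. Among TAM libraries, Clec3b and Scara5 had a larger spread than 99.9% of the genes tested, Cd34 than 98.7% and Pi16 than 97.8%. The members with the lowest TAM means were those with the widest TAM libraries, and Cd248 had a larger spread than only 28.7% of the genes. Clec3b spanned 47.3-fold and Scara5 36.7-fold among the TAM libraries. Of the 10 genes, 7 were highest in EtOH replicate 3 and lowest in EtOH replicate 2, an order that 21.8% of the genes tested had. The same order among TAM libraries was seen in 3 members, Cd34, Pi16 and Clec3b, and in 19.0% of the genes tested.

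Levels of different genes were compared per kilobase of exon. In the EtOH libraries the order ran from Ly6a at 9783 ± 650 normalized counts per kilobase (SD, n = 3) through Ly6c1 at 6170 ± 494, Dpt at 4909 ± 2025, Cd248 at 2412 ± 517, Clec3b at 1903 ± 958, Cd34 at 1700 ± 725, Anxa3 at 1307 ± 445 and Mfap5 at 1206 ± 128 to Scara5 at 106 ± 72.9 and Pi16 at 38.4 ± 31.1. Among neighbours in this order, only Ly6a and Ly6c1, and Mfap5 and Scara5, differed by more than their SDs added together. In the TAM libraries the order was Ly6a at 8197 ± 2653, Ly6c1 at 4197 ± 1582, Dpt at 3461 ± 2299, Cd248 at 2336 ± 304, Anxa3 at 1324 ± 1076, Mfap5 at 880 ± 325, Clec3b at 201 ± 219, Cd34 at 68.1 ± 78.5, Scara5 at 28.6 ± 36.7 and Pi16 at 5.72 ± 5.83. Only Mfap5 and Clec3b were then neighbours that differed by more than their SDs added together. Ly6a, Ly6c1, Dpt and Cd248 thus held the top 4 places in both groups, while Clec3b and Cd34 stood above Anxa3 and Mfap5 in EtOH and below them in TAM. Among 11874 genes with an exon length, Cd34 stood at percentile 96.9 of level per kilobase in EtOH and 35.0 in TAM, and Clec3b at 97.3 and 66.9. Scara5 and Pi16 were low already in EtOH, at percentiles 46.6 and 22.8. Of the summed normalized counts of the 10 genes, Cd34 made up 10.9% in EtOH and 0.6% in TAM, while Cd248 made up 15.1% and 21.6%.

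**Figure D3:**
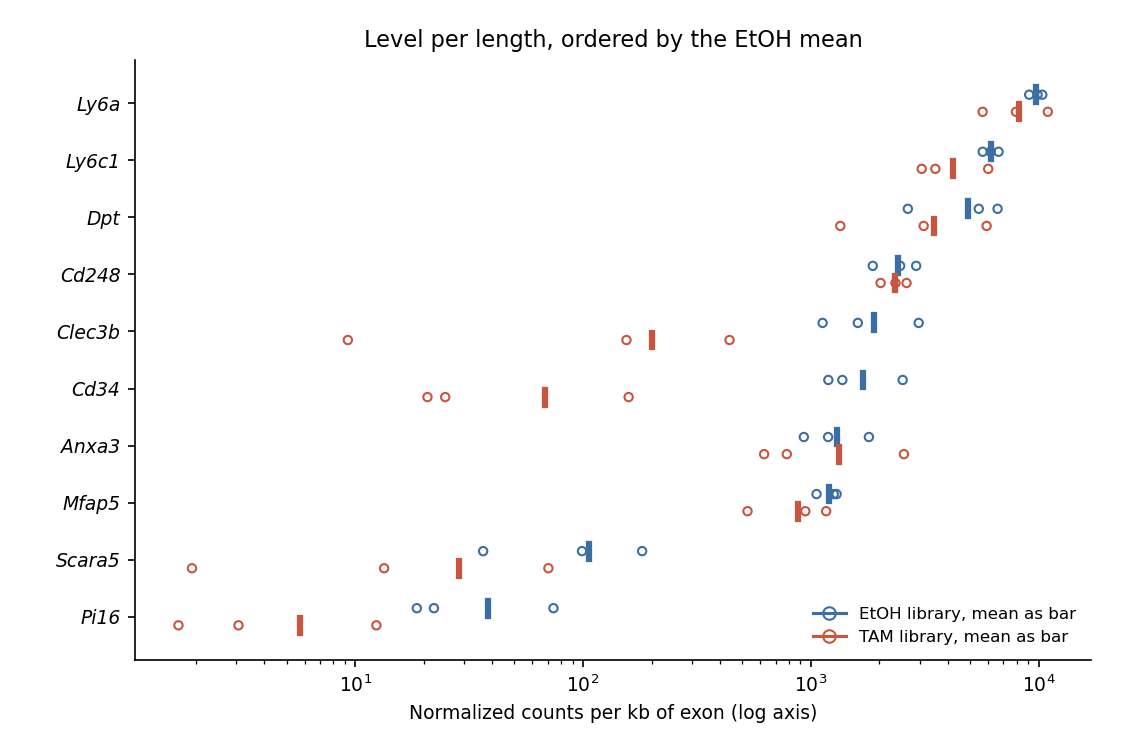
Normalized counts per kilobase of exon (log axis) of the 10 genes, with an open circle for each library and a bar for the group mean, EtOH in blue and TAM in red. Ly6a, at 9783 in EtOH and 8197 in TAM, is the highest of the 10 in both groups, and Pi16 is the lowest.

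The genes outside the 10 with the pattern most like that of Cd34 were taken by the distance between log2 values centred on each gene's mean over the 6 libraries. They were Col15a1 (distance 1.53), a nonfibrillar collagen of the basement membrane zone, Spock3 (1.98), a matrix proteoglycan, Ngfr (2.19), the low-affinity receptor of nerve growth factor, Grm7 (2.37), a glutamate receptor, and Nppc (2.49), the precursor of C-type natriuretic peptide. Ngfr had 2901, 1078 and 3545 normalized counts in the EtOH libraries and 27.2, 9.20 and 52.9 in the TAM libraries. Nppc had 264, 79.1 and 692 and then 10.8, 11.7 and 41.4. In these 2 genes, as in Cd34, EtOH replicate 3 was the highest of the EtOH libraries and TAM replicate 3 of the TAM libraries. Of the members, Clec3b (2.88) and Pi16 (2.98) ranked 12 and 14 by distance to Cd34 and Scara5 ranked 171, while the other 6 ranked between 626 and 8087. The distance is set mostly by the difference between groups, over 6 libraries, so it is given as a description.

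**Figure D4:**
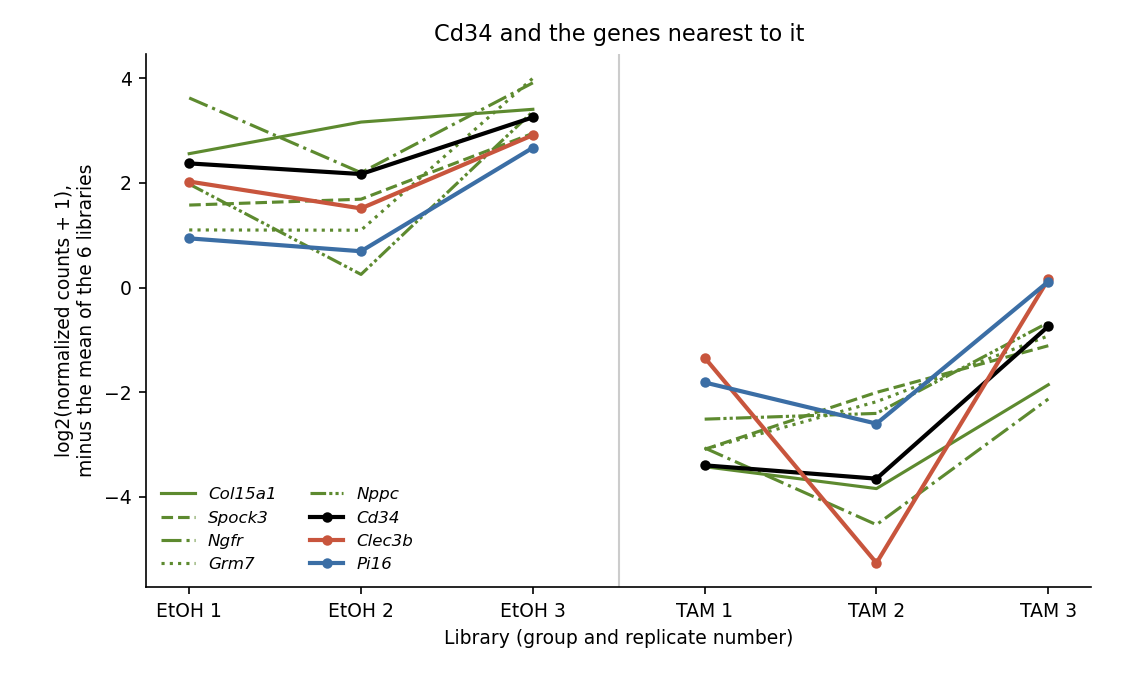
log2(normalized counts + 1) minus the mean of the 6 libraries for Cd34, the 5 nearest genes outside the 10 genes, and Clec3b and Pi16, by library. Replicate 3 is the highest TAM library for all 8 genes, and all lie lower in the TAM libraries.

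Other markers of adventitial fibroblasts moved in both directions. This list and the gene lists below were chosen with earlier results of these data known. Their calls, counts and medians are therefore not independent of this contrast and are given as a description. Of 36 genes in this wider list, 28 were tested, of which 18 had a negative and 10 a positive log2 fold change, with a median of −0.69. Over all genes tested, 53.8% were negative. Unadjusted p with limma was under 0.05 in 4 higher and 8 lower, against 6.67% and 6.70% of all genes tested. The TAM libraries lay all below the EtOH libraries in 9 of the 28 and all above in 4, against 11.4% and 9.19%. At an adjusted p under 0.05 with limma, Col15a1 fell and Pcolce2 rose. Col15a1 had 1777, 2702 and 3199 normalized counts in the EtOH libraries and 27.2, 20.1 and 82.4 in the TAM libraries. Its TAM values were below every EtOH value, with a log2 fold change of −6.08 (standard error 0.51, adjusted p = 0.0175). Leaving out any library other than TAM replicate 3 ended this call, with adjusted p between 0.051 and 0.121. Pcolce2, for an enhancer of the enzyme that trims procollagen, had 95.9, 64.8 and 86.7 normalized counts in the EtOH libraries and 353, 428 and 311 in the TAM libraries. It was higher in every TAM library, with a log2 fold change of 2.13 (standard error 0.24, adjusted p = 0.0374). This call was lost without any 1 library, with adjusted p between 0.0734 and 0.213.

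With the replicate block, 3 more of the wider list fell. Ogn, for the small proteoglycan osteoglycin, had 57701, 31771 and 78157 normalized counts in the EtOH libraries and 9051, 1613 and 16021 in the TAM libraries (log2 fold change −3.09, adjusted p = 0.201 without and 0.0461 with the block). Creb5, a transcription factor, had 165, 787 and 197 and then 37.6, 155 and 63.7 (log2 fold change −2.02, adjusted p = 0.293 without and 0.0352 with the block). Igfbp6, a binding protein of insulin-like growth factor, had 13608, 12627 and 19417 and then 3683, 4682 and 7384 (log2 fold change −1.57, adjusted p = 0.12 without and 0.0407 with the block). Creb5 is highest in replicate 2 of both groups, the replicate in which Cd34, Clec3b, Pi16 and Scara5 were lowest.

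Genes of other fibroblast populations were read from the same fit, in which unadjusted p was under 0.05 in 6.67% higher and 6.70% lower of all genes tested. For papillary dermis, 8 of 11 genes were tested and 0 passed with or without the block (unadjusted p under 0.05 in 0 higher and 1 lower), with a median log2 fold change of 0.15. The extremes were Prdm1, a repressor of transcription, at 1.75 (standard error 1.40, adjusted p = 0.638), and Dpp4, a surface peptidase that the wider adventitial list also holds, at −1.31 (standard error 1.02, adjusted p = 0.629). For reticular and hypodermal fibroblasts, 11 of 14 were tested and 0 passed with or without the block (unadjusted p under 0.05 in 3 higher and 1 lower), with a median of 0.92. The extremes were Icam1, an adhesion molecule, at 2.65 (adjusted p = 0.147), and Zfp423, a factor of preadipocytes, at −1.81 (adjusted p = 0.183). Of 13 genes of the dermal papilla and sheath, 4 were tested and 0 passed with or without the block (unadjusted p under 0.05 in 1 higher and 0 lower), with a median of 0.63 and with Lef1 at 2.03 and Trps1 at −0.69. The medians of these lists and that of the wider adventitial list lay on opposite sides of the −0.03 of all genes tested, and the difference between lists was not tested.

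Markers that fibroblasts share were found in every library at 157.5 normalized counts or more, except Tcf21, which was listed at 0 in all 6. Of 18 such genes, 17 were tested and 0 passed with or without the block (unadjusted p under 0.05 in 2 higher and 4 lower), with a median log2 fold change of −0.35. Their summed normalized counts ran from 2326212 to 2439368 in the EtOH libraries and from 1524655 to 1841030 in the TAM libraries. The largest falls in this sum were of collagens, with EtOH and TAM means of 512956 and 330050 for Col1a1, 371706 and 220304 for Col1a2, and 522846 and 246510 for Col3a1. Fn1 had means of 439491 and 504255. The log2 fold change was negative for 11 of the tested genes and positive for 6. Lum, for the proteoglycan lumican, had the lowest value at −2.38 (standard error 0.70, adjusted p = 0.236) and Thy1, a surface glycoprotein, the highest at 1.36 (standard error 0.49, adjusted p = 0.295). The TAM libraries lay all below the EtOH libraries in 8 of the 17 tested genes, against 11.4% over all genes tested. They lay all above in 2, against 9.19%. The part of the lower sum of these shared markers in the differences of the 10 genes was not tested.

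**Figure D5:**
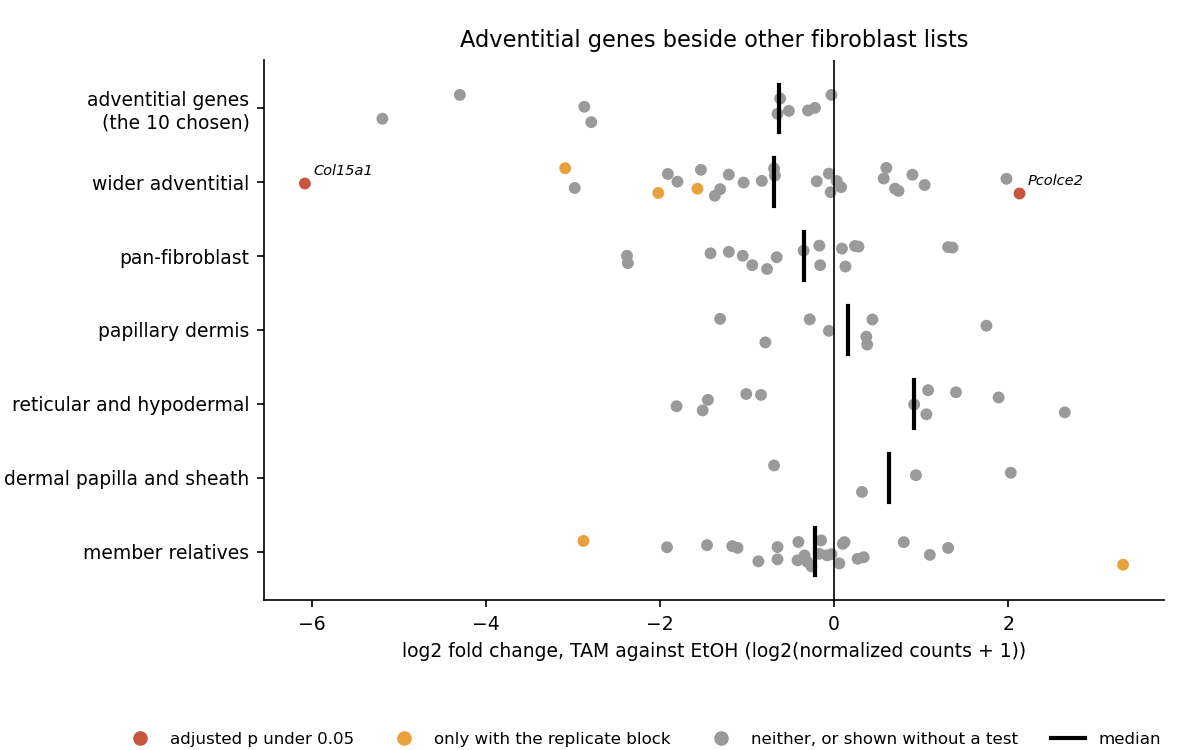
log2 fold change, TAM minus EtOH, of each tested gene in the lists of fibroblast genes, with the list's median as a line red for genes past an adjusted p of 0.05, orange for those past it with the replicate block alone, and grey for the rest and for the 10 chosen genes, which are shown without a test result. The wider adventitial list spans both signs with a median of −0.69, and the reticular and hypodermal list has a median of 0.92.

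Genes related to the members by family had no common direction. Of 38 relatives, 26 were tested, 17 with a negative and 9 with a positive log2 fold change and a median of −0.22, and 0 passed without the block (unadjusted p under 0.05 in 3 higher and 6 lower). With the block, Scara3 fell and Anxa8 rose. Scara3, a relative of Scara5, had 52.9, 83.0 and 483 normalized counts in the EtOH libraries and 7.81, 8.36 and 65.3 in the TAM libraries (log2 fold change −2.88, adjusted p = 0.303 without and 0.0267 with the block). Anxa8, a relative of Anxa3, had 11.4, 18.1 and 6.92 and then 98.6, 186 and 99.0 (log2 fold change 3.32, adjusted p = 0.0544 without and 0.0237 with the block). Anxa3 was likewise highest in TAM replicate 2. In the Ly6 family, Ly6e had 3836, 5196 and 4186 normalized counts in the EtOH libraries and 3211, 7373 and 6127 in the TAM libraries (log2 fold change 0.27, adjusted p = 0.771). Ly6i ranged from 11.7 to 25.5 over the 6 libraries, and Ly6c2, Ly6d, Ly6f, Ly6h and Ly6k reached no more than 19.2 in any library. Ly6a, Ly6c1 and Ly6e were thus the family members of the list with at least 2576 normalized counts in every library.

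Cd34 and Ly6a are also made by other cell types, so markers of these were read in each library. Of 9 endothelial markers, 2 were tested, and their summed normalized counts ran from 153 to 250 in EtOH and from 68.4 to 89.5 in TAM. Most of the difference was Kdr, with 205, 68.7 and 116 normalized counts in the EtOH libraries and 4.84, 7.53 and 14.0 in the TAM libraries (log2 fold change −3.71, adjusted p = 0.0608 without and 0.0488 with the block). Of the other endothelial markers, Egfl7 lay between 34.2 and 56.1, and Esam, Pecam1 and Vwf reached 14.4, 11.3 and 10.1 at most. Cdh5, Emcn and Tie1 reached no more than 4.80 in any library and Cldn5 was listed at 0 in all 6. Cd34 was at 3129 or above in every EtOH library. For leukocytes the sums of 9 markers were 130 to 428 in EtOH and 171 to 323 in TAM, with Ptprc at no more than 5.01 and Emr1, Tyrobp and Cd3e at 0 in all 6. The largest parts of these sums were Cd68, between 49.5 and 352 over the 6 libraries, and Csf1r, with 75.7, 73.4 and 74.3 normalized counts in the EtOH libraries and 113, 226 and 90.6 in the TAM libraries (log2 fold change 0.82, adjusted p = 0.388). Csf1r was higher in every TAM library and did not pass the test. For keratinocytes the sums of 8 markers were 81.1 to 92.2 and 65.7 to 126, with Krt1 at 0 in all 6 and Krt14 at no more than 0.91. Krt10 lay between 41.0 and 59.1 in all libraries. Krt5 had 0.64, 0 and 0 normalized counts in the EtOH libraries and 2.96, 7.53 and 13.4 in the TAM libraries. Dsp had 2.89, 12.4 and 5.22 and then 4.22, 69.5 and 29.8. Krt5 and Dsp were below the filter and were not tested. Trp63 had 25.1, 25.8 and 24.9 normalized counts in the EtOH libraries and 7.15, 2.50 and 6.87 in the TAM libraries (log2 fold change −2.11, adjusted p = 0.187). The sums of 7 pericyte markers were 326 to 960 and 357 to 1179, those of 7 Schwann cell and melanocyte markers 411 to 1031 and 304 to 717, and those of 5 adipocyte markers 12.2 to 338 and 37.7 to 103. The part of these cell types in the values of the 10 genes was not tested.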

How the data were processed

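Mapping by the authors was to mm9 with TopHat, counting per gene was with htseq-count, and differential expression was with edgeR after TMM scaling. The signal deposited by the authors is 1 table of normalized counts for 22162 genes and 6 libraries, of which 22148 were found in the mm9 annotation. Its scaling is not given in the sources used here. Read totals are unknown, so no counting intervals are given, and precision is that of 3 libraries against 3, for which an exact two-sided permutation test cannot go below p = 0.1. In TAM replicate 2, all of 3862 low values lay within 0.1 steps of whole multiples of 0.836 normalized counts. No column was without a sample.

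The fit used limma 3.58.1 in R 4.3.3 on log2(value + 1) with an intensity trend and Benjamini-Hochberg adjustment over all genes tested, two-sided. It was run on simulated data in which no gene's spread exceeded the median spread. That run does not cover genes with a spread above the median, among them Cd34, Clec3b, Pi16 and Scara5. Members were part of the fit. Calls on them are given only beside those over all genes tested, and nothing is read from them. Across genes, which are not independent replicates, deviations from the group mean correlated between libraries of the same number with r of 0.24, 0.29 and 0.42, and between different numbers with −0.31 to 0.04 (9 correlations). These values are tied together, because deviations from a group mean add up to 0 within each group. Positive values for the same number therefore bring negative ones between different numbers. The pairing comes from the numbers in the labels alone. The members and gene lists were chosen with earlier results of these data known. Named were all members, Cdkn1b, in each list the genes called or else the largest rise and fall, the Ly6 family, the 5 genes nearest to Cd34, and the marker genes of other cells that a sum turned on. Ly6g and Col6a5 were not analysed here. Exons, promoters and matches (BLAST 2.17.0, at least 95% identity over 100 bases) came from the mm9 genome and annotation. Python 3.11.15 with pandas 2.3.3 was used for tables and matplotlib 3.10.9 for plots. The 14 alternatives were other filters, scalings and pseudocounts, the replicate block, and leaving out each library.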

Additional observations from a re-analysis of the deposited data

How the results depend on the processing

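The median log2 fold change of the 10 genes, −0.63, ranged from −0.84 to −0.52 over 14 alternatives, and between 8 and 10 genes were below 0. Clec3b and Pi16 were not in the fit that required 10 normalized counts in every library. Cd248 changed sign in 4 alternatives (range −0.20 to 0.11) and Anxa3 in 3 (−0.85 to 0.17). Cd34 ranged from −6.12 to −4.67, Clec3b from −5.45 to −2.74, Pi16 from −3.64 to −2.25 and Scara5 from −4.03 to −1.49. Without TAM replicate 3, Cd34 was among the genes past the threshold, where 9 of 11695 genes tested passed lower and 6 higher. Because the 10 genes were chosen on the fall of Cd34 in these libraries, nothing is read from this call. The counts of calls depended more on the setting, and the cause was not tested. Genes called higher, 20 as reported, were 45 without a filter, 119 with the replicate block and 0 to 6 with 1 library left out. Genes called lower, 9 as reported, were 3 without a filter, 4 with at least 10 in every library, 73 with the replicate block and 0 to 9 with 1 library left out. Genes called in the lists of related fibroblast genes, 2 as reported, were 0 without a filter, 7 with the replicate block and 0 to 1 with 1 library left out. The block changed no other call in these lists. Anxa8 also passed with libraries scaled to the same sum, with quantile normalization and with a pseudocount of 10. Values of a few normalized counts, such as those of Clec3b and Pi16 in TAM replicate 2, rest on few reads.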

Other observations

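A pair of fibroblast genes below the filter stood high in the libraries with replicate number 1, and they were picked after their values were seen. Gpc3, for a surface proteoglycan of the reticular and hypodermal list, had 35.9 normalized counts in EtOH replicate 1 and 101 in TAM replicate 1, and no more than 4.18 in the other 4 libraries. Limch1, of the wider adventitial list, had 10.7 in EtOH replicate 1 and 113 in TAM replicate 1, and no more than 6.12 elsewhere. Neither gene was tested.

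EtOH replicate 2 held the highest values of Fabp4, Cd68 and Dlk1, genes picked after their values were seen. Fabp4, a fatty acid carrier of fat cells, had 337 normalized counts there, 64.7 and 11.3 in EtOH replicates 1 and 3 and 36.9, 102 and 40.0 in the TAM replicates. Cd68, a lysosomal protein of macrophages, had 352 there and between 49.5 and 116 in the other 5 libraries. Dlk1, of the reticular and hypodermal list, had 133 there and between 10.8 and 46.1 in the others. Markers of other cells went both ways in EtOH replicate 2. Notch3, Mitf and Pmel were also highest there. The pericyte markers Rgs5 and Mcam were lowest of all libraries there, with 6.62 and 25.7 normalized counts. Cd34, Clec3b, Pi16, Scara5 and Dpt were lowest among the EtOH libraries in the same replicate, as were Ly6a, Mfap5 and Cd248. A link between these values was not tested.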
